A study of Zea mays with 96 samples.

Results

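The change in triple mutant endosperm between 12 and 16 days after pollination (DAP) was examined by setting the 4 nkd1 nkd2 o2 (n1n2o2) libraries at 16 DAP against the 4 at 12 DAP across all genes, which used 8 of the 96 libraries in the series. The series profiled endosperm mRNA of maize inbred W22 in 8 genotypes, WT and all homozygous combinations of nkd1, nkd2 and o2 mutations, at 8, 12 and 16 DAP. Plants were self-pollinated and, by the study's methods, grown in a greenhouse or in the field. By the same methods each library is a pool of 3 endosperms from 1 ear, with 4 independent ears a group. The n1n2o2 endosperm is homozygous for nkd1-Ds, nkd2-null and o2 at both times, so age is the sole labelled difference between the groups compared. WT endosperm (all 3 genes +/+) and, more briefly, nkd1 nkd2 (n1n2) and o2 endosperm at the same ages served to show where the change in n1n2o2 differed. A library is whole endosperm of a pool of kernels, not a cell type.

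NAKED ENDOSPERM1 and NAKED ENDOSPERM2 are paralogous zinc finger transcription factors of the INDETERMINATE DOMAIN family, known for their role in aleurone identity and in starchy endosperm. OPAQUE2 is a bZIP transcription factor best known for activating zein genes and enzymes of amino acid and pyruvate metabolism. Zeins are the alcohol-soluble storage proteins that starchy endosperm packs into protein bodies. By the paper's account, cell division in normal starchy endosperm is most active near 8 DAP, and cells then turn to endoreduplication. Demand for histones is high in both. Grain filling starts soon after, when zein and starch genes take a growing part of the mRNA.

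The 16 DAP libraries held 47442927 to 51681982 reads on genes and the 12 DAP libraries 49110688 to 55600080. The first principal component of the 8 libraries took 48.6% of the variance and separated the ages, and no replicate pair was identical or within counting noise. The second component (16% of the variance) separated 12 DAP replicates 1 and 2 from replicates 3 and 4, and the third did the same at 16 DAP. Targeted genes matched the labels: o2 had 11, 0, 2 and 2 reads at 16 DAP and 0, 1, 0 and 1 at 12 DAP, and nkd2 had 18, 27, 30 and 15 reads at 16 DAP and 35, 30, 23 and 29 at 12 DAP. WT endosperm at 16 DAP had 23982 to 31408 o2 reads and 647 to 1049 nkd2 reads. Reads on nkd1 do not check its lesion, since 3372 to 3989 were counted at 16 DAP and 4576 to 6513 at 12 DAP (log2 fold change, log2FC, -0.51 ± 0.10 SE, adjusted p = 0.00377).

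1 library stood apart. In 16 DAP replicate 4, 36 genes with at least 100 reads had at least 8 times the depth-scaled level of every other 16 DAP library, and 13 of those 36 are zeins. The other 16 DAP libraries had 2, 0 and 1 such genes and the 12 DAP libraries 1, 5, 6 and 0. Its o2 and nkd2 reads (2 and 15) were in the range of the other n1n2o2 libraries or below it. Whether its zein reads came from its own tissue or were carried over from another library was not tested. Among the 12 DAP libraries, replicate 3 held the most zein reads. Results that rest on 16 DAP replicate 4 are given below with and without it.

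Of 22668 genes that passed the filter on low counts, 1011 rose at 16 DAP (4.46%) and 939 fell (4.14%), or 8.6% in either direction. A gene was called where edgeR's quasi-likelihood test gave a Benjamini-Hochberg adjusted p below 0.05 and the fold change exceeded 2 (log2FC beyond 1). Changes past 4-fold were more frequent upward, with 394 genes higher and 254 lower. With the adjusted p alone, 14.9% of genes were higher and 15.4% lower, 30.3% in all. In 1741 of the 1950 called genes (89.3%) the ranges of CPM (counts per 1000000 reads, scaled by TMM) at 16 and 12 DAP did not overlap, against 32.6% of all genes tested. Without 16 DAP replicate 4, 1044 genes rose (4.53% of 23062) and 1112 fell (4.82%), or 9.35% in all. These included 886 of the 1011 that rose and 839 of the 939 that fell in the full set. The paper's gene tables name 689 of the tested genes, and 46 of them rose while 49 fell. The named genes come from modules and hub tables that the study built on these libraries, so their counts are not independent evidence of a direction.

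Transcripts of the 16 named zein genes were nearly absent at both ages. These genes are 14 alpha zeins, the beta zein zp15 and the delta zein dzs18, with no gamma zein among them. Zein reads and zein share here mean these 16 genes, not all zein mRNA. Reads on the 16 named zein genes numbered 840, 1773, 990 and 50097 at 16 DAP, against 108, 127, 451 and 44 at 12 DAP. Scaled to depth these were 17.7, 34.3, 19.3 and 1028 zein reads per 1000000 reads on genes at 16 DAP and 2.20, 2.28, 9.03 and 0.807 at 12 DAP. Every 16 DAP library lay above every 12 DAP library, and replicate 4 lay far above the other 16 DAP libraries. The zein share of reads on genes averaged 0.0275% ± 0.0502 at 16 DAP and 0.000358% ± 0.000369 at 12 DAP (SD, n = 4 each), a difference of 0.0271 percentage points with p = 0.0286 in a two-sided exact permutation test, the smallest p that 4 against 4 allows. Without replicate 4 the 16 DAP share averaged 0.00238%, a difference of 0.00202 points from 12 DAP (exact permutation p = 0.0286). With any 1 of the 12 DAP libraries left out and replicate 4 kept, the exact permutation p was 0.457. The groups are then unequal, and every arrangement with replicate 4 in the smaller group gives a larger difference. This p therefore cannot show whether the result is fragile. Every 16 DAP library still lay above every 12 DAP library that was kept. In bulk endosperm, fewer cells of a type and less RNA per cell cannot be told apart.

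These levels were far below those of WT, n1n2 and o2 at the same ages. Zein reads of the remaining genotypes, nkd1 o2 and nkd2 o2 among them, were not counted here. WT endosperm had 178348 to 189693 zein reads per 1000000 at 16 DAP and 56400 to 108570 at 12 DAP. Endosperm lacking both NKDs (n1n2) had 97378 to 160540 at 16 DAP and 23686 to 40375 at 12 DAP. The o2 mutant came nearest at 12 DAP, with 52.2 to 450 zein reads per 1000000, yet had 37872 to 43437 at 16 DAP. At each age none of the 12 libraries of these 3 genotypes overlapped the n1n2o2 range.

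**Figure D1:**
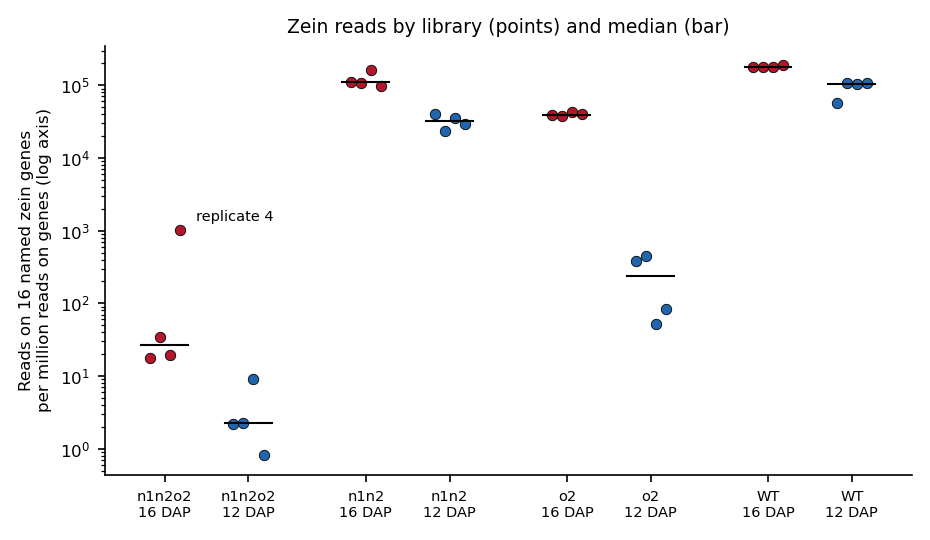
Zein reads per 1000000 reads on genes on a log axis (16 named genes), with 16 DAP left of 12 DAP in n1n2o2, n1n2, o2 and WT; each point is a library and each bar the group median. The n1n2o2 points lie at 17.7 to 1028 at 16 DAP and 0.807 to 9.03 at 12 DAP, below every other genotype at the same age.

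Of the 16 zein genes 7 passed the filter on low counts, and 6 of these 7 were called higher (all genes tested, 4.46% higher). At 12 DAP az19d2, zein, zmpms1 and fl2 had 0 reads in 3 of 4 libraries. az19d2, zein, zmpms1, fl4 and dzs18 passed through the 16 DAP group, and fl2 through 16 DAP libraries together with 12 DAP replicate 3. Of the 7, zp15 alone would also have passed through the 12 DAP group. The count is therefore a description of the genes that passed, and nothing is read from it. For the genes other than zp15 the filter favoured a rise, so their fold changes and adjusted p below are descriptions too. Without 16 DAP replicate 4, az19d2, zp15 and dzs18 were called. With the replicate number as a block 3 were called, and with DESeq2 1, dzs18, where 5 of the 7 got no adjusted p. Zein genes occur in families of near-identical copies, and how the counting shared reads among copies is not given in the sources used here, so the counts of single alpha-zein genes are uncertain.

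The 3 zein genes called without replicate 4 encode different classes of zein. az19d2, an alpha zein of the 19-kDa class, had 142, 885, 397 and 462 reads at 16 DAP, against 0, 0, 72 and 0 at 12 DAP. Its groups did not overlap, and the log2FC was 4.69 ± 1.20 (edgeR quasi-likelihood, adjusted p = 0.0151), or 4.69 without replicate 4 (adjusted p = 0.026). DESeq2 did not call az19d2 (adjusted p = 0.104). zp15, the 15-kDa beta zein, had 487, 662, 369 and 8488 reads at 16 DAP, against 99, 116, 85 and 36 at 12 DAP. Its log2FC was 4.96 ± 1.09 with all libraries (edgeR adjusted p = 0.0076) and 2.64 without replicate 4 (adjusted p = 0.000967). dzs18, the 18-kDa delta zein, had 78, 58, 48 and 17 reads at 16 DAP, against 1, 1, 17 and 2 at 12 DAP. Here replicate 4 was the lowest 16 DAP library and tied with 12 DAP replicate 3 in reads. The log2FC of dzs18 was 3.26 ± 0.87 (edgeR adjusted p = 0.0189), and it lost its call without 16 DAP replicate 1 (2.94, adjusted p = 0.0525).

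The other zein genes turned on replicate 4. fl4, an alpha zein of the 19-kDa class, had 41, 50, 67 and 11718 reads at 16 DAP, against 5, 1, 101 and 6 at 12 DAP (log2FC 6.74 ± 2.14, edgeR adjusted p = 0.0375; without replicate 4, 0.89 with adjusted p = 0.587). The gene listed as zein (Zein-alpha 19B1) had 16, 41, 17 and 6974 reads at 16 DAP, against 0, 0, 27 and 0 at 12 DAP (log2FC 8.05, edgeR adjusted p = 0.0287, and 1.83 with adjusted p = 0.339 without replicate 4). zmpms1 had 25, 48, 45 and 10548 reads at 16 DAP, against 0, 0, 68 and 0 at 12 DAP (log2FC 7.32, edgeR adjusted p = 0.0357, and 1.19 with adjusted p = 0.575 without replicate 4). In all of these, 1 library of each age held most reads of its group, 16 DAP replicate 4 and 12 DAP replicate 3. Their calls were also lost when 12 DAP replicate 1, 2 or 4 was left out, with edgeR adjusted p of 0.0858 to 0.09 for fl4, 0.069 to 0.0725 for zein and 0.0814 to 0.0854 for zmpms1, and DESeq2 gave none of the 3 an adjusted p. fl2, the 22-kDa alpha zein gene mutated in floury2, had 7, 13, 14 and 257 reads at 16 DAP, against 0, 0, 25 and 0 at 12 DAP (log2FC 3.53, edgeR adjusted p = 0.114). Without 12 DAP replicate 3, which held its only reads at that age, fl2 passed the test (edgeR adjusted p = 0.0336). az22z3, too low elsewhere to be tested, had 2, 0, 0 and 2425 reads at 16 DAP and 1, 6, 2 and 0 at 12 DAP. The 14 named alpha zein genes included 9 that were not tested.

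Of 8 genes listed as known OPAQUE2 targets, 7 were tested, and 1 rose while 1 fell (all genes, 4.46% higher and 4.14% lower). The gene that rose was zp15, a zein, and the gene that fell was pdk1. lkrsdh1, which encodes the lysine-degrading enzyme lysine-ketoglutarate reductase/saccharopine dehydrogenase, had 277, 211, 203 and 2727 reads at 16 DAP, against 347, 337, 302 and 278 at 12 DAP (log2FC 1.497, edgeR adjusted p = 0.175). Without replicate 4 its value turned negative (-0.39, adjusted p = 0.135). rip1, a ribosome-inactivating protein, had at most 10 reads in any n1n2o2 library. bzip17, a bZIP factor on the list of storage regulators, shared the outlying library, with 21, 22, 19 and 361 reads at 16 DAP and 38, 84, 18 and 10 at 12 DAP (log2FC 1.59, edgeR adjusted p = 0.266, and -0.76 with adjusted p = 0.414 without replicate 4). None of the 3 tested storage regulators was called.

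Pyruvate orthophosphate dikinase, an abundant enzyme of starchy endosperm encoded by pdk1 and pdk2, changed in opposite senses. pdk1 had 534, 426, 553 and 622 CPM at 16 DAP, against 1163, 1450, 1176 and 1237 at 12 DAP. All 16 DAP libraries were lower, and pdk1 fell with a log2FC of -1.24 ± 0.12 (edgeR adjusted p = 0.000149). pdk2 had 6650, 5110, 6332 and 4864 CPM at 16 DAP, against 4022, 4123, 3719 and 3637 at 12 DAP. All 16 DAP libraries were higher, but the log2FC of 0.57 ± 0.12 (edgeR adjusted p = 0.0059) stayed inside the 2-fold limit. In WT both had negative log2FC, -0.97 for pdk1 and -0.87 for pdk2, and the change of pdk2 differed between n1n2o2 and WT by 1.42 ± 0.20 (edgeR genotype-by-time term, adjusted p = 9.29e-05). The paralogs are similar in sequence, so reads may be shared between them.

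Of the starch genes, 2 were tested and neither was called. sbe3, a starch branching enzyme, had 222, 232, 250 and 247 CPM at 16 DAP, against 421, 415, 351 and 390 at 12 DAP. The groups were apart, with a log2FC of -0.73 ± 0.07 (edgeR adjusted p = 0.000179) that did not reach the 2-fold limit. ss5, a starch synthase family member, had a log2FC of -0.13 (edgeR adjusted p = 0.306). Markers of other endosperm tissues were few among the named genes. The aleurone list has 3 members, of which 2 were tested and 1 rose (all genes, 4.46% higher). chi3, a chalcone isomerase of the flavonoid pathway, had 19, 48, 40 and 38 reads at 16 DAP, against 6, 9, 17 and 7 at 12 DAP. It rose without overlap (log2FC 1.92 ± 0.48, edgeR adjusted p = 0.0135). fht1, flavanone 3-hydroxylase of the flavonoid pathway, had 212, 194, 10 and 15 reads at 16 DAP, against 209, 384, 77 and 181 at 12 DAP, with overlapping groups (log2FC -0.90, edgeR adjusted p = 0.443). c1, the MYB regulator of aleurone anthocyanin, had 6, 5, 0 and 0 reads at 16 DAP and 1, 8, 1 and 4 at 12 DAP. incw4, the member named on the transfer layer list, was not called (log2FC 0.55, edgeR adjusted p = 0.214). Markers of embryo and pericarp were not analysed here.

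The 10 most abundant genes took 13.7% ± 1.03 of reads on genes at 16 DAP and 10.4% ± 1.16 at 12 DAP (SD, n = 4 each), a difference of 3.38 percentage points (two-sided exact permutation p = 0.0286, and 0.0571 without 16 DAP replicate 1 or replicate 3). In WT the share was 30.9% to 31.9% at 16 DAP and 17.2% to 19.9% at 12 DAP. Of the 10 genes with the highest mean CPM at 16 DAP in n1n2o2, 2 rose, and neither is named in the tables used here. Zm00001d020592 averaged 54930 ± 7136 CPM at 16 DAP and 25373 ± 5840 CPM at 12 DAP (SD, n = 4 each), with a log2FC of 1.11 ± 0.18 (edgeR adjusted p = 0.00195) and 1.13 in WT. Zm00001d005793 had a log2FC of 1.19 ± 0.20 (edgeR adjusted p = 0.00199). The other 8, pdk2 among them, had log2FC of -0.41 to 0.71 and were not called.

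The 10 largest rises among named genes with no overlap and a mean of at least 100 reads come next, besides the zeins az19d2 and zp15 given above. SCI1, a protease inhibitor, had 83.1, 85.4, 139 and 190 CPM at 16 DAP, against 4.00, 5.87, 10.9 and 2.97 CPM at 12 DAP. It was higher in all 16 DAP libraries, by a fitted 21.0-fold (log2FC 4.39 ± 0.43, edgeR adjusted p = 0.000155). SCI1 also rose in WT (log2FC 1.11), and the change in n1n2o2 exceeded that in WT by 3.27 ± 0.49 (adjusted p = 0.000158). The rise was not particular to n1n2o2, with log2FC of 6.51 in o2 (edgeR adjusted p = 1.09e-05) and 1.68 in n1n2 (0.000395). Of 5 protease inhibitor genes named, 3 were tested, and SCI1 was the member called (all genes, 8.6% called in either direction).

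hsftf17, a heat stress transcription factor, had 6.47, 10.96, 4.51 and 5.58 CPM at 16 DAP, against 0.657, 0.389, 0.365 and 0.460 CPM at 12 DAP. All 16 DAP libraries exceeded all 12 DAP libraries (log2FC 3.87 ± 0.33, edgeR adjusted p = 8.75e-05). hsftf17 had a log2FC of 3.47 in WT, and the difference of 0.39 did not pass the test (adjusted p = 0.621). It was the 1 gene called higher among 6 tested heat shock genes (all genes, 4.46% higher).

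MADS26, a MADS-box transcription factor, had 5.09, 7.67, 5.15 and 4.98 CPM at 16 DAP, against 1.13, 0.795, 1.28 and 0.978 CPM at 12 DAP. It rose with a log2FC of 2.45 ± 0.23 (edgeR adjusted p = 0.000124) and without overlap. The change in n1n2o2 exceeded that in WT (log2FC 0.54) by 1.89 (adjusted p = 0.000152). AGO2A, an argonaute protein of RNA silencing, had 21.6, 15.2, 17.3 and 26.5 CPM at 16 DAP, against 5.35, 7.70, 5.75 and 5.06 CPM at 12 DAP. It rose in both genotypes, with log2FC of 1.76 ± 0.20 in n1n2o2 (edgeR adjusted p = 0.000281) and 1.25 in WT.

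Zm00001d044978, annotated as 1-aminocyclopropane-1-carboxylate oxidase 1, the last step of ethylene synthesis, had 17.5, 19.4, 1.61 and 1.53 CPM at 16 DAP, against 1.41, 0.901, 0.975 and 1.27 CPM at 12 DAP. The rise came from 16 DAP replicates 1 and 2, while replicates 3 and 4 lay just above the 12 DAP range (log2FC 3.14 ± 0.80, edgeR adjusted p = 0.0154). Those same replicates were together on the third principal component. Zm00001d011832, a G-type lectin receptor kinase, had 3.07, 7.95, 2.37 and 6.63 CPM at 16 DAP, against 0.0796, 0.177, 1.44 and 0.863 CPM at 12 DAP. It rose in n1n2o2 (log2FC 2.97 ± 0.74, edgeR adjusted p = 0.0134), and its change exceeded that in WT by 3.64 (adjusted p = 0.00306). It also rose in o2 (log2FC 4.22, edgeR adjusted p = 2.92e-05) and in n1n2 (2.17, adjusted p = 0.00434). Among 20 receptor kinase genes tested it was the 1 that rose, and 3 fell (all genes, 4.46% higher and 4.14% lower).

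Zm00001d048479, annotated as similar to the nascent polypeptide-associated complex alpha subunit, rose with a log2FC of 2.80 ± 0.39 (edgeR adjusted p = 0.000805). Zm00001d027652, the tonoplast aquaporin TIP1-1, had 12.4, 13.1, 17.9 and 32.9 CPM at 16 DAP, against 6.94, 7.28, 4.53 and 4.604 CPM at 12 DAP. Replicate 4 was again the highest, and TIP1-1 rose with it (log2FC 1.71 ± 0.32, edgeR adjusted p = 0.00329) and without it (1.31, adjusted p = 0.0027).

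**Figure D2:**
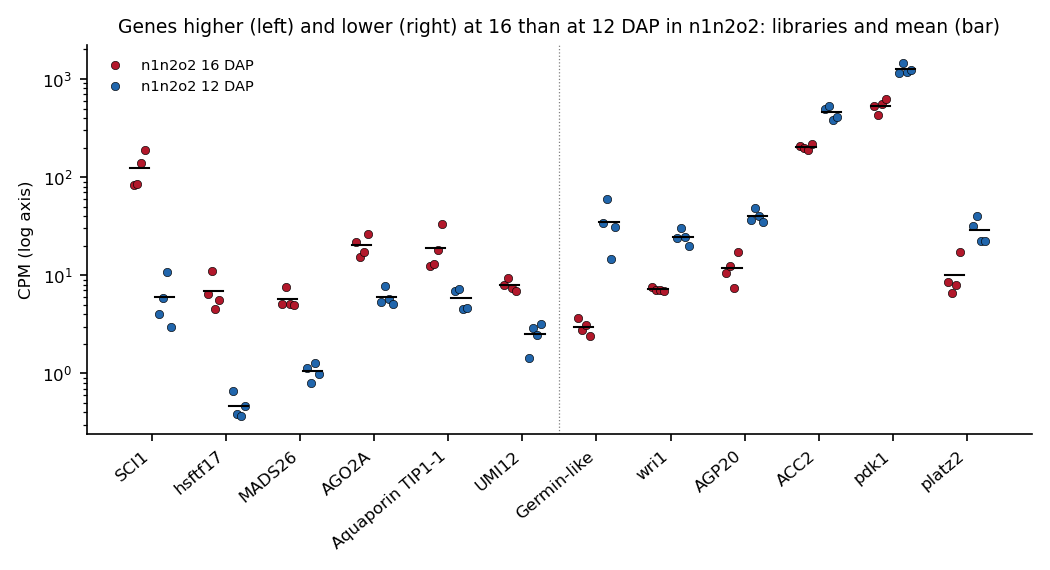
CPM (log axis) of 6 genes that rose and 6 that fell in n1n2o2, with 16 DAP left of 12 DAP; each point is a library and each bar the mean of 4. The groups do not overlap in any of the 12 panels, and SCI1 spans 83.1 to 190 CPM at 16 DAP against 2.97 to 10.9 CPM at 12 DAP.

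Several further regulators that rose were chosen after their values were seen. AMO1, an amine oxidase, had 4.72, 3.49, 1.65 and 1.63 CPM at 16 DAP, against 0.0597, 0.0353, 0 and 0 CPM at 12 DAP. It had one of the largest rises, with a log2FC of 6.76 ± 0.72 (edgeR adjusted p = 0.000229) and 6.21 in WT. NACTF25, a NAC transcription factor, had 0.856, 0.961, 0.695 and 3.27 CPM at 16 DAP, against 0, 0.0707, 0.0812 and 0 CPM at 12 DAP. It rose with a log2FC of 5.15 ± 0.90 (edgeR adjusted p = 0.00256), or 4.37 without replicate 4. AMO1 and NACTF25 were near the floor at 12 DAP and passed the low-count filter through the 16 DAP group, so the size of their rises is uncertain. EREB149, an AP2/EREBP factor, rose with a log2FC of 2.26 (edgeR adjusted p = 0.00261), and SNRKII5, annotated as the SnRK2-type kinase SRK2A, with 2.16 (adjusted p = 0.00263). Among 41 tested transcription factors of the modules described below, MADS26, EREB149 and NACTF25 rose and wri1 and EREB96 fell, which is 12.2% of them (all genes, 8.6%).

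The largest falls by the same rule follow. Zm00001d004401, a germin-like protein of the cell wall, had 3.69, 2.77, 3.08 and 2.41 CPM at 16 DAP, against 34.2, 59.5, 14.6 and 30.7 CPM at 12 DAP. This was the largest of them, with a log2FC of -3.54 ± 0.37 (edgeR adjusted p = 0.000225), and the WT value was -6.16. The difference of 2.61 ± 1.40 did not pass the test (edgeR genotype-by-time term, adjusted p = 0.204). Zm00001d010434, arabinogalactan peptide 20, had 10.5, 12.4, 7.33 and 17.2 CPM at 16 DAP, against 36.6, 48.3, 40.6 and 35.0 CPM at 12 DAP. Both named arabinogalactan peptides fell, with log2FC of -1.76 ± 0.22 for this one (edgeR adjusted p = 0.000535) and -1.08 for arabinogalactan peptide 3 (Zm00001d009415, adjusted p = 0.00803). The call of arabinogalactan peptide 3 was lost without 16 DAP replicate 1 (-0.93) or 16 DAP replicate 2 (-0.96), which brought it inside the 2-fold limit.

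wri1, an AP2 transcription factor that activates genes of glycolysis and fatty acid synthesis, had 7.68, 7.03, 7.03 and 6.95 CPM at 16 DAP, against 23.9, 29.99, 24.4 and 19.7 CPM at 12 DAP. It fell with a log2FC of -1.77 ± 0.13 (edgeR adjusted p = 4.39e-05), beside -1.39 in WT. Of the 6 acyl lipid genes tested, 3 fell, 0 rose and the median log2FC was -0.82, beside a background of 4.14% lower over all genes. ACC2, acetyl-CoA carboxylase, the first committed step of fatty acid synthesis, had 206, 199, 187 and 216 CPM at 16 DAP, against 499, 535, 383 and 414 CPM at 12 DAP. The groups were well apart, and ACC2 fell with a log2FC of -1.18 ± 0.11 (edgeR adjusted p = 0.000106). The others that fell were Zm00001d006866, the chain-elongating 3-oxoacyl-ACP synthase II (log2FC -1.30, edgeR adjusted p = 0.000143), and Zm00001d005624, annotated as a delta(8)-fatty-acid desaturase (-1.37, adjusted p = 0.000366). This list was drawn by matching descriptions after earlier results were known, so not every member need act on lipids. It holds PHD24 (Zm00001d022583), described as an acyl-CoA N-acyltransferase with a RING/FYVE/PHD-type zinc finger domain, with 0 to 24 reads in n1n2o2.

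The remaining genes of the 10 largest named falls had diverse roles. Zm00001d009416, a jacalin-related lectin, had a log2FC of -2.24 (edgeR adjusted p = 0.00629). Zm00001d002687, cytochrome P450 86A7, of a family that hydroxylates fatty acids, had -1.72 (edgeR adjusted p = 0.00142). Zm00001d008230, the magnesium-protoporphyrin cyclase of chlorophyll synthesis, had -1.70 (edgeR adjusted p = 0.000132), and Zm00001d007132, a proton-pumping pyrophosphatase of the vacuole, -1.69 (adjusted p = 0.000549). In 3 the fall in n1n2o2 exceeded that in WT by the genotype-by-time test: Zm00001d007263, a WAT1-related transporter (log2FC -1.85, difference to WT -1.35, adjusted p of the difference 0.0159 in edgeR), Zm00001d005071, a PP2C-type phosphatase (-1.68, difference -1.63, adjusted p 0.00288), and Zm00001d009801, the receptor kinase NSP-INTERACTING KINASE 3 (-1.57, difference -1.44, adjusted p 0.000292). The transporter and NSP-INTERACTING KINASE 3 also fell in n1n2, with log2FC of -1.98 (edgeR adjusted p = 0.00028) and -1.37 (0.000174), while the phosphatase had 0.05. In o2 the log2FC was -0.53 for the transporter, 0.35 for NSP-INTERACTING KINASE 3 and -0.03 for the phosphatase. NSP-INTERACTING KINASE 3 had 6.26, 6.18, 5.47 and 7.63 CPM at 16 DAP, against 20.015, 24.1, 17.8 and 13.9 CPM at 12 DAP. Zm00001d004048, annotated as xanthoxin dehydrogenase of the abscisic acid pathway and chosen after its values were seen, fell with a log2FC of -2.86 (edgeR adjusted p = 0.000807).

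Of 20 hub regulators of the study's network that were tested, hsftf17 and mybr24 rose and platz2 and arf29 fell, which is 20% of them (all genes, 8.6%). platz2, a plant-specific zinc-binding factor, had 8.54, 6.67, 7.89 and 17.1 CPM at 16 DAP, against 32.03, 40.4, 22.1 and 22.3 CPM at 12 DAP. Its log2FC was -1.54 ± 0.31 in n1n2o2 (edgeR adjusted p = 0.00465) and -3.01 in WT. The difference of 1.44 ± 0.64 did not pass the test (edgeR genotype-by-time term, adjusted p = 0.12). mybr24, a MYB-related factor, rose with a log2FC of 2.68 ± 0.43 (edgeR adjusted p = 0.00156). arf29, an auxin response factor, had -2.45 ± 0.67 (edgeR adjusted p = 0.0198), a call lost without 12 DAP replicate 1 (-2.20, adjusted p = 0.0575), 12 DAP replicate 2 (-2.23, 0.0557) or 16 DAP replicate 1 (-2.31, 0.0572).

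Co-expression modules of the study gave the widest set of named genes. Module M1 has 529 genes, of which 275 were tested, and 42 rose (15.3%) while 8 fell (2.91%), beside 4.46% and 4.14% of all genes, with a median log2FC of 0.27. Without 16 DAP replicate 4, 31 of its genes rose and 19 fell. Of module M3, 612 genes were listed in the table used, which is shortened, and 561 were tested. Of these, 11 rose (1.96%) and 53 fell (9.45%), with a median log2FC of -0.21. The modules were built on these libraries and are not independent evidence.

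Histone genes fell less than in WT. Among 12 tested, 3 fell past the 2-fold limit, 0 rose and 8 were lower by the adjusted p alone (background, 15.4% lower by that rule), with a median log2FC of -0.86. Zm00001d006213, a probable histone H2A.4, had 161, 168, 175 and 199 CPM at 16 DAP, against 391, 451, 387 and 401 CPM at 12 DAP. It fell with a log2FC of -1.21 ± 0.08 (edgeR adjusted p = 3.16e-05). The other calls were Zm00001d003730 (histone H3.2, log2FC -1.26, edgeR adjusted p = 2.89e-05) and Zm00001d005791 (histone H4, -1.07, adjusted p = 8.61e-05). H3 and H4 genes have near-identical copies, so counts of single genes are uncertain.

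In WT, 11 of the 12 histone genes fell past the limit (background in WT, 7.85% lower), with a median log2FC of -1.89. The genotype-by-time term is the change in n1n2o2 minus the change in WT. It was positive in all 12 with an adjusted p below 0.05 (background by that rule, 2818 of 23704 genes). The term exceeded the 2-fold limit in 7 (background, 4.7% of all genes). It ranged over 0.53 to 1.54, with a median of 1.10. Against o2 endosperm the same term of the 12 genes ranged over -0.34 to 1.79 with a median of 0.23, and against n1n2 over -0.06 to 1.10 with a median of 0.34. HIS2B3, a histone H2B gene, had the largest term against WT, 1.54 (edgeR adjusted p = 0.000561), with a log2FC of -0.04 in n1n2o2 and -1.59 in WT. mcm6, a subunit of the replicative helicase, had 46.3, 36.9, 38.7 and 52.9 CPM at 16 DAP, against 50.3, 55.4, 55.5 and 59.7 CPM at 12 DAP. The groups of mcm6 overlapped (log2FC -0.34, edgeR adjusted p = 0.0488), while WT had -1.44, a difference of 1.09 ± 0.15 (adjusted p = 6.55e-05), or 0.98 without 16 DAP replicate 4, just inside the 2-fold limit.

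**Figure D3:**
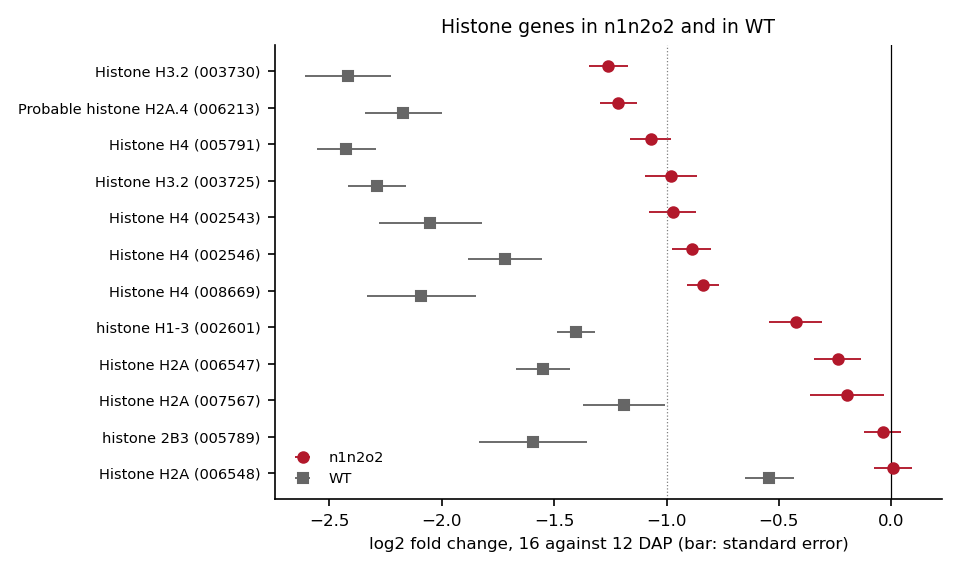
Log2FC at 16 against 12 DAP, with SE as bars, of 12 histone genes in n1n2o2 (upper point of each pair) and WT (lower point), from edgeR fits of 8 libraries each; the dotted line marks the 2-fold limit of -1. The n1n2o2 point lies right of the WT point for all 12 genes, and 3 n1n2o2 points and 11 WT points lie beyond the line.

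None of 13 ribosomal protein genes was called in n1n2o2 by edgeR (all genes, 8.6% called), with a median log2FC of -0.03. By the adjusted p alone 2 were higher and 0 lower (all genes, 14.9% and 15.4%). In WT 10 of them were tested and 4 fell (background in WT, 7.85% lower). None of the 4 cellulose synthase genes was called by edgeR, with log2FC of -0.17 to 0.17. Of 4 tubulin genes, Zm00001d008216 (tubulin beta-6) was the 1 that fell (all genes, 4.14% lower), with a log2FC of -1.09 ± 0.08 (edgeR adjusted p = 4.42e-05), close to -1.29 in WT.

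The change over time differed from that in WT for 1911 of 23704 genes (8.06%). The term was positive for 1113 (4.7%) and negative for 798 (3.37%). With scaling by library totals only, the split was 2223 positive and 495 negative and the median term over all genes was 0.32 instead of 0.04, so the balance of directions depended on scaling. Of 907 positive terms with both changes known, WT fell past the limit in 555 and n1n2o2 rose past it in 221. Of 717 negative terms, WT rose past the limit in 379 and n1n2o2 fell past it in 161.

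In WT itself, 1149 genes rose (5.57%) and 1621 fell (7.85%), or 13.4% of 20646. In n1n2, 6.17% of the genes tested rose and 6.23% fell (12.4% in all), and in o2, 6.46% rose and 7.19% fell (13.6%). Among 20128 genes tested in both genotypes, 248 rose in both, which is 34.6% of those that rose in n1n2o2 and 23.6% of those in WT. Another 293 fell in both, 38.9% of those that fell in n1n2o2 and 18.7% of those in WT. Opposite calls were found for 22 and 21 genes. Across genes the log2FC of both genotypes had a Pearson r of 0.451. Genes are not independent replicates, and this r is a description. With o2 the r was 0.459 and with n1n2 0.612.

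**Figure D4:**
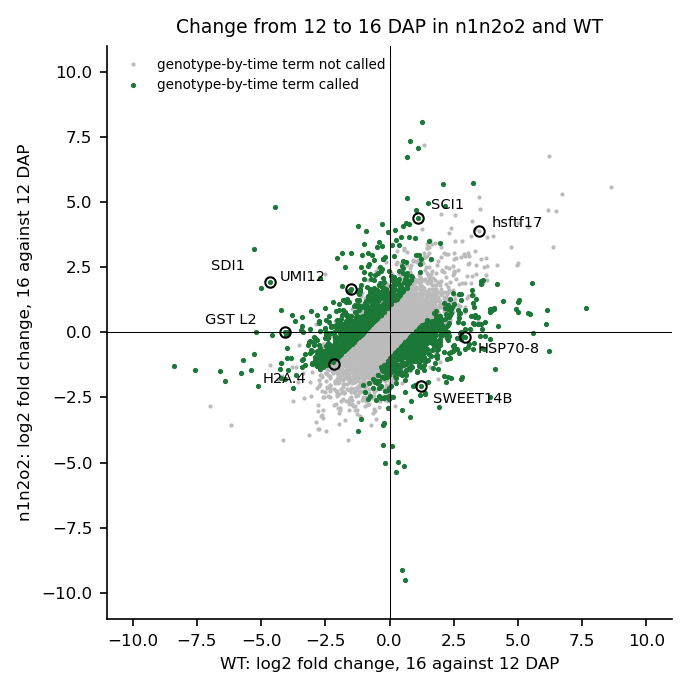
Log2FC at 16 against 12 DAP in n1n2o2 (vertical axis) against that in WT (horizontal axis) for 20128 genes tested in both, with the 1624 genes whose genotype-by-time term was called marked and 1 gene outside the axes. Of the marked genes, 555 of 907 with a positive term fell past the limit in WT and 379 of 717 with a negative term rose past it in WT.

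Against n1n2 endosperm, which differs from n1n2o2 in o2 alone, the term was positive for 329 genes (1.38%) and negative for 546 (2.28%), or 3.66% of 23927. Under library totals only, this became 967 positive and 359 negative, with a median term of 0.27 in place of 0.01, so the direction of this majority turned with scaling. Against o2 endosperm, the term was positive for 1120 genes (4.7%) and negative for 908 (3.81%), or 8.5% of 23847, and 1562 and 679 under library totals only (median 0.20). Genes rising in both n1n2o2 and n1n2 numbered 416, or 51.6% of those in n1n2o2 and 32.6% of those in n1n2. Genes falling in both numbered 444, or 49.8% of those in n1n2o2 and 33.4% of those in n1n2. Whether the larger share with n1n2 than with WT exceeds chance was not tested.

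Individual terms against WT showed both kinds of departure. The positive terms include genes with a large fall in WT and little expression or change in n1n2o2. Zm00001d029546, metallothionein-like protein 1, a small metal-binding protein, had 14, 14, 10 and 59 reads in n1n2o2 at 16 DAP and 4, 3, 3 and 0 at 12 DAP, whereas WT had 24, 51, 50 and 20 reads at 16 DAP and 2118, 3279, 3968 and 1346 at 12 DAP. The term was 8.90 ± 0.90 (edgeR adjusted p = 5.52e-06), and 7.97 without n1n2o2 16 DAP replicate 4. FIP1 (Zm00001d025901) depended on that library, with 0, 0, 0 and 220 reads in n1n2o2 at 16 DAP and 0, 1, 6 and 0 at 12 DAP, and a term of 8.06 with it (edgeR adjusted p = 0.0265) and -0.37 without it (adjusted p = 0.852).

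The remaining 3 of the 5 most positive terms among named genes with a mean of at least 100 reads were zein genes at trace levels in n1n2o2. They were zpl2a (7.08, edgeR adjusted p = 0.0419), zein (6.78, 0.0377) and az22z4 (6.74, 0.047), and without replicate 4 none passed (adjusted p of 0.897 for zpl2a, 0.695 for zein and 0.402 for az22z4). The terms were also lost when other libraries of n1n2o2 or WT were left out, in all in 12 of 16 such fits for zpl2a, 11 for zein and 12 for az22z4. zpl2a had 9, 1, 0 and 2392 reads in n1n2o2 at 16 DAP and 0, 2, 9 and 0 at 12 DAP.

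Further positive terms were chosen after their values were seen. UMI12, named for induction by the smut fungus Ustilago maydis, had 7.91, 9.44, 7.42 and 6.97 CPM at 16 DAP, against 1.43, 2.93, 2.44 and 3.20 CPM at 12 DAP. UMI12 rose in n1n2o2 (log2FC 1.66 ± 0.24, edgeR adjusted p = 0.000945) and fell in WT (-1.52, adjusted p = 2.53e-06), a difference of 3.17 ± 0.26 (adjusted p = 1.14e-06). Zm00001d012485, an amino acid transporter family member, had 3.94, 5.31, 2.96 and 9.52 CPM at 16 DAP, against 1.51, 2.16, 1.38 and 1.73 CPM at 12 DAP. It rose in n1n2o2 (log2FC 1.68, edgeR adjusted p = 0.00547) with a term of 2.42 (adjusted p = 0.000219).

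Zm00001d048444, annotated as SULFUR DEFICIENCY-INDUCED 1, had 26, 75, 26 and 99 reads in n1n2o2 at 16 DAP and 8, 28, 16 and 10 at 12 DAP, whereas WT had 40, 96, 128 and 138 reads at 16 DAP and 4981, 4003, 4801 and 1847 at 12 DAP. The n1n2o2 level at both ages was in or below the range of WT at 16 DAP, and the term was 6.57 ± 0.70 (edgeR adjusted p = 7.99e-06). Zm00001d047765, glutathione S-transferase L2, had 35.0, 17.4, 19.7 and 15.6 CPM in n1n2o2 at 16 DAP, against 25.8, 23.0, 20.9 and 18.3 CPM at 12 DAP, with overlapping groups. It fell in WT (log2FC -4.09), and the term was 4.07 ± 0.33 (edgeR adjusted p = 1.08e-06).

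Of the 5 most negative terms among named genes with a mean of at least 100 reads over the 16 libraries, 2 belong to heat shock proteins that rose in WT. Zm00001d039933, the 16.9-kDa class I heat shock protein 1, had 1.92, 3.30, 1.04 and 2.99 CPM in n1n2o2 at 16 DAP, against 2.49, 2.77, 1.87 and 0.595 CPM at 12 DAP, with overlapping groups. Its log2FC in WT was 4.22, and the term was -3.99 ± 0.85 (edgeR adjusted p = 0.00279). Zm00001d048073, heat shock 70 kDa protein 8, had 31.8, 56.6, 27.4 and 25.4 CPM in n1n2o2 at 16 DAP, against 52.5, 39.2, 33.6 and 32.9 CPM at 12 DAP. The groups overlapped, WT rose with a log2FC of 2.94, and the term was -3.12 ± 0.34 (edgeR adjusted p = 1.16e-05). hsftf17 rose in both genotypes, as given above.

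SWEET14B, of the sugar exporter family, had 48, 2, 8 and 58 reads in n1n2o2 at 16 DAP, against 175, 169, 71 and 105 at 12 DAP. All 16 DAP counts were lower, with a log2FC of -2.07 that missed the threshold (edgeR adjusted p = 0.0597), while WT rose with 1.21, a term of -3.30 ± 0.76 (adjusted p = 0.00501). Without 16 DAP replicate 4 the log2FC in n1n2o2 was -2.64 (edgeR adjusted p = 0.0382). Zm00001d025161, an ARM repeat protein, had log2FC of -1.92 in n1n2o2 (edgeR adjusted p = 0.019) and 1.51 in WT, a term of -3.44 ± 0.53 (adjusted p = 0.000232). Its fall in n1n2o2 lost its call without 12 DAP replicate 4 (-1.41, adjusted p = 0.0597) or 16 DAP replicate 1 (-1.79, 0.0537). Zm00001d018318, a protein kinase, rose in WT (log2FC 1.95) with a term of -2.08 (edgeR adjusted p = 1.59e-05).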

How the data were processed

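The authors deposited raw read counts per gene for each library, with 46430 genes and 5 HTSeq summary lines. The submitters' processing notes name HISAT2 2.1.0, SAMtools 1.9, StringTie 1.3.6, HTSeq 0.11.1 and the B73 RefGen_v4 build, and the labels give TruSeq libraries sequenced as paired-end reads on a NovaSeq. Counting mode, strand setting and annotation release are not given in the sources used here. W22 reads were aligned to another inbred, and repeated genes may be counted unevenly. Summary lines were left out of library sizes, and reads on genes made up 82.5% to 85.8% of the lines' total in the 8 n1n2o2 libraries.

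Counts were filtered (filterByExpr), scaled by TMM and tested with edgeR 4.0.16 (quasi-likelihood) in R 4.3.3, and p-values were adjusted over all tested genes by Benjamini-Hochberg. A call needed adjusted p below 0.05 and more than 2-fold. The genotype-by-time term was fitted over 16 libraries. SE is the log2FC divided by the root of F. Shares of reads were compared by exact permutation over all arrangements of the libraries. Ears were separate, and the numbers of replicates pair no samples. The fits were tested on simulated data. Alternatives were DESeq2 1.42.0, other scalings, no filter, 1 fit of 64 libraries, a replicate block and leaving out libraries.

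Gene names come from the study's tables (881 genes). Of 157 list symbols 52 matched an ID, and the rest were not analysed here. Text names the mutated genes, list members, the 10 largest named rises and falls (mean of at least 100 counts, no overlap), the 10 most abundant genes and the 5 most positive and negative terms against WT. Other named genes are so marked or belong to the lists drawn by description. The comparison, members and lists were chosen with earlier results of these data known.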

Additional observations from a re-analysis of the deposited data

Results flagged for a closer look

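In 90 groups of 4 n1n2o2 libraries, the gap of the farthest library was divided by the group's range, and a share above Dixon's 95% critical value marks that library. Chance marks about 1 in 20 groups where the groups are independent and normally distributed. A group with reads in only 1 library gets a share of 1 by construction, and the zein genes are not independent. The marks were therefore not weighed against that rate. At 16 DAP replicate 4 was the high library for az22z3 (0.999), fl4 (0.998), zein (0.997), bzip17 (0.993), the zein share of reads (0.984), fl2 (0.972), zp15 (0.97), lkrsdh1 (0.964), Zm00001d029546 (0.91), NACTF25 (0.897) and FIP1 (Zm00001d025901, 1). At 12 DAP replicate 3 was the high library for zein (1), fl2 (1), az19d2 (1), fl4 (0.952), dzs18 (0.937) and FIP1 (Zm00001d025901, 0.855). Others were MADS26 in 16 DAP replicate 2 (0.938), wri1 in 16 DAP replicate 1 (0.893) and rip1 in 12 DAP replicate 2 (1), the last on 4 reads. Why these libraries hold more of these transcripts, carry-over from another library included, was not tested.

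The change over time differed from that in WT, by the edgeR genotype-by-time term on the log2 scale, for zein genes at trace levels in n1n2o2: zpl2a (7.08), zein (6.78), az22z4 (6.74), zmpms1 (6.52), fl4 (6.05), dzs18 (3.77), az19d2 (3.67) and zp15 (3.44). Without 16 DAP replicate 4 the terms were 0.44 for zmpms1 (edgeR adjusted p = 0.797) and 0.25 for fl4 (0.881), and each of these 2 was lost in 11 of 16 fits that left out 1 library and under the replicate block (adjusted p of 0.217 for zmpms1 and 0.264 for fl4). It was also positive for Zm00001d029546 (8.90), FIP1 (Zm00001d025901, 8.06), Zm00001d048444 (6.57), Zm00001d047765 (4.07), Zm00001d003280 (3.90), Zm00001d011832 (3.64), SCI1 (3.27), UMI12 (3.17), Zm00001d012485 (2.42), MADS26 (1.89), pdk2 (1.42) and mcm6 (1.09). It was negative for Zm00001d039933 (-3.99), Zm00001d025161 (-3.44), SWEET14B (-3.30), Zm00001d048073 (-3.12), Zm00001d018318 (-2.08) and Zm00001d009801 (-1.44).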

How the results depend on the processing

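Of 59 changes over time of single genes, 45 kept their direction and their side of the threshold under every alternative run, as did 18 of 27 differences to WT. Without 16 DAP replicate 4, lkrsdh1 and bzip17 reversed, and so did the terms against WT of zpl2a and FIP1 (Zm00001d025901). Over all left-out libraries lkrsdh1 ranged over -0.39 to 1.83, bzip17 over -0.76 to 2.27, the term of zpl2a over -0.35 to 8.92 and that of FIP1 over -0.37 to 10.03, each lowest without that library. With 12 DAP replicate 3 also left out, an alternative chosen after seeing the data, lkrsdh1 was at -0.39 and bzip17 at -0.97. The cause was not tested.

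The adjusted p alone gave 3377 genes higher and 3501 lower, and 2818 and 2458 positive and negative terms against WT, 2711 and 2471 against o2, and 1451 and 1383 against n1n2. Library totals only gave 2223 and 495 against WT and 967 and 359 against n1n2. Zein genes called higher numbered 1 with DESeq2 (5 of the 7 got no adjusted p), 15 in 1 fit of 64 libraries, 14 with no filter and 3 with the replicate block. Histone genes called lower numbered 5 without both zein-rich libraries and 8 by adjusted p alone. Module M1 had 90 higher in the fit of 64 libraries, and 16 lower with DESeq2, 25 in that fit, 15 with no filter and 19 without both zein-rich libraries. Module M3 had 7 higher under the replicate block, and 36 higher and 137 lower by adjusted p alone.

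Leaving out each library in turn gave 798 to 1170 genes higher and 734 to 1112 lower, 968 to 1136 positive and 714 to 849 negative terms against WT, 1026 to 1094 and 821 to 999 against o2, and 264 to 348 and 414 to 589 against n1n2. List calls ranged over 3 to 6 for zein, 2 to 5 for histones lower, 31 to 43 and 6 to 19 for M1 higher and lower, and 7 to 13 and 38 to 61 for M3. The difference in zein share ranged over 0.00202 to 0.0357 points and that of the 10 most abundant genes over 2.89 to 3.86. With the replicate block, 844 genes rose and 783 fell. Same-numbered libraries correlated at -0.04, -0.11, -0.12 and -0.12, so the number is a name only. Calls of Zm00001d044978 (block) and az19d2 (DESeq2) were also lost, as was the term of mcm6 in the fit of 64 libraries (adjusted p = 0.108) and that of zp15 under the block (0.222) or without 12 DAP replicate 4 (0.0571).

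Depth limits the zein values at 12 DAP, where several genes have 0 reads in 3 libraries.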
